A study of Mus musculus with 61 samples.

Results

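The 26 genes described here make cholesterol or move and store it, and were chosen by name: the regulators Srebf2, Scap, Insig1 and Insig2, the enzymes of the mevalonate arm (Acat2, Hmgcs1, Mvk, Pmvk, Mvd, Idi1 and Fdps), of the squalene and lanosterol arm (Fdft1, Sqle and Lss) and of the post-lanosterol arm (Cyp51, Tm7sf2, Msmo1, Nsdhl, Hsd17b7, Ebp, Sc5d and Dhcr7), and the transport and storage genes Npc1, Npc2, Stard4 and Soat1. They were the nearest named gene of 131 of the 133129 windows of 1000 bp in which H3K27ac, a histone mark of active promoters and enhancers, had been counted in mouse microglia. All 26 were also among the 21679 protein-coding genes with an annotated start. Of the 131 windows, 69 had a mean above 16 normalized tags and were tested, at 23 of the 26 genes. Sqle, Tm7sf2 and Stard4 had no tested window.

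The series held 61 samples of mouse brain, of which 30 were input controls. Mice without a deletion (WT) were compared with mice carrying a deletion of the Sall1 super-enhancer (EKO), homozygous, made by genome editing and crossed to C57BL/6J for several generations. The WT and EKO mice were males 8 to 12 weeks old on a C57BL/6J background. H3K27ac was profiled in 2 WT and 2 EKO libraries of sorted CD11b+ CD45low CX3CR1+ microglia, and in 2 libraries per genotype of PU1 (myeloid), NeuN (neuronal) and Olig2 (oligodendrocyte lineage) nuclei. Peaks of the transcription factor SALL1 came as 1 pooled list each from WT, EKO, PWK and SPRET microglia (PWK and SPRET are wild-derived strains), those of SMAD4 from WT and from libraries titled as a conditional SMAD4 deletion but described by an EKO list (SMAD4 mutant here), and those of the co-activator p300 from WT. The inputs of the SMAD4 mutant libraries are titled as EKO, and the paper describes SMAD4 binding in EKO microglia. The name SMAD4 mutant therefore does not mean that SMAD4 was absent. EKO stands for 1 engineered allele, which every cell of the animal carries. The labels do not say whether libraries came from separate animals.

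Sterol synthesis is governed by feedback in the endoplasmic reticulum. SREBP-2, the product of Srebf2, is escorted by SCAP to the Golgi when sterols are scarce and is held back by the INSIG proteins when they are plentiful. Its processed form enters the nucleus and acts at sterol regulatory elements, usually with the factors NF-Y and Sp1, in promoters of the synthesis enzymes. Microglia and other brain macrophages also take in cholesterol from myelin and dying cells, pass it out of lysosomes through NPC2 and NPC1, and esterify the excess with the enzyme encoded by Soat1.

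The letters of those elements were looked for in RefSeq promoters (GRCm38.p6, 250 bases before to 50 after a start) and are shown because they are the known control sequence of the family. Of the 26 members, 21 had a promoter in the table. A form of the sterol regulatory element, TCACNCCAC on either strand, was found in 1 of the 21 genes, Hmgcs1, against 1.44% of all 27025 genes. The box CCAAT was found in 19 of 21 (90.5%) against 41.1% of all genes, and the box GGGCGG in 20 of 21 (95.2%) against 38.2%. A gene counted if any of its promoters matched. By promoter, CCAAT was in 70.4% of member promoters against 37.4% of all, and GGGCGG in 85.2% against 35.7%. No test was run on these shares, and a match is not a binding site. The stretches below run 5′ to 3′ on the strand of the gene, with the matched letters in capitals (ATTGG is CCAAT on the other strand). The first line is the Hmgcs1 element at chr13:119690204-119690232, and the others are the CCAAT box nearest to any start of each gene. The Insig2 box lies by another start of the gene than its H3K27ac window at -164 bp described below.
Hmgcs1 element: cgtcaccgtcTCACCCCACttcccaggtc
Srebf2 box, chr15:82147122-82147150: cttcgcgcgccgATTGGctaatgcaagcc
Insig1 box, chr5:28071184-28071212: cgccctcctcccATTGGctccggcggcct
Insig2 box, chr1:121332602-121332630: tcaccttccacaCCAATctatattaaaat
Hmgcs1 box, chr13:119690349-119690377: ctgagtcccgggATTGGcagaggtagccg
Soat1 box, chr1:156474342-156474370: gccgcaggaccaCCAATggcatcccggag

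One library stood apart before any comparison. EKO library 1 of the microglia had a median of 84.3 normalized tags per tested window, against 46.4 and 35.8 in the WT libraries and 29.9 in EKO library 2. Depths, as recovered from the smallest step of each column, lay between 9963450 and 24357800 tags. Library 1 of the PU1 WT nuclei had 11149 called regions, against 25990 to 74196 in the other 11 nuclei libraries. Microglial and neuronal markers fitted the labels of the nuclei. None of 8 microglial markers was listed at 0 in every PU1 library, and all 8 neuronal markers were. Of the 8 microglial markers 6 were at 0 in every NeuN library and 6 in every Olig2 library. The 8 oligodendrocyte lineage markers summed to 5181 to 6542 tags in Olig2, 142 to 207 in NeuN and 0 to 166 in PU1. Astrocyte markers did not keep to 1 type: 6 genes summed to 301 to 508 in NeuN, 269 to 405 in Olig2 and 0 to 81.7 in PU1. As a check of the deletion, the SALL1 lists held 15410 peaks in WT and 7 in EKO.

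Comparison of EKO with WT microglia asked where H3K27ac at these genes differs once the Sall1 super-enhancer is missing. The gaining windows belonged to Soat1 (5) and Npc2 (2), which store and transport cholesterol, and the losing windows to the regulators Scap (2) and Insig2 (2) and to the enzyme gene Nsdhl (1). The other 18 genes with a tested window had no call. The test was limma on log2(tags + 1) after quantile normalization of the 4 libraries, with Benjamini-Hochberg adjustment over all 55285 tested windows and a call at an adjusted p below 0.05 and a fold above 2. It called 7 of the 69 member windows as gaining (10.1%) and 5 as losing (7.25%). Over all tested windows 8.68% gained and 7.56% lost, so the members as a whole were near the background. Their median log2 difference was 0.03, against -0.03 over all windows.

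**Figure D1:**
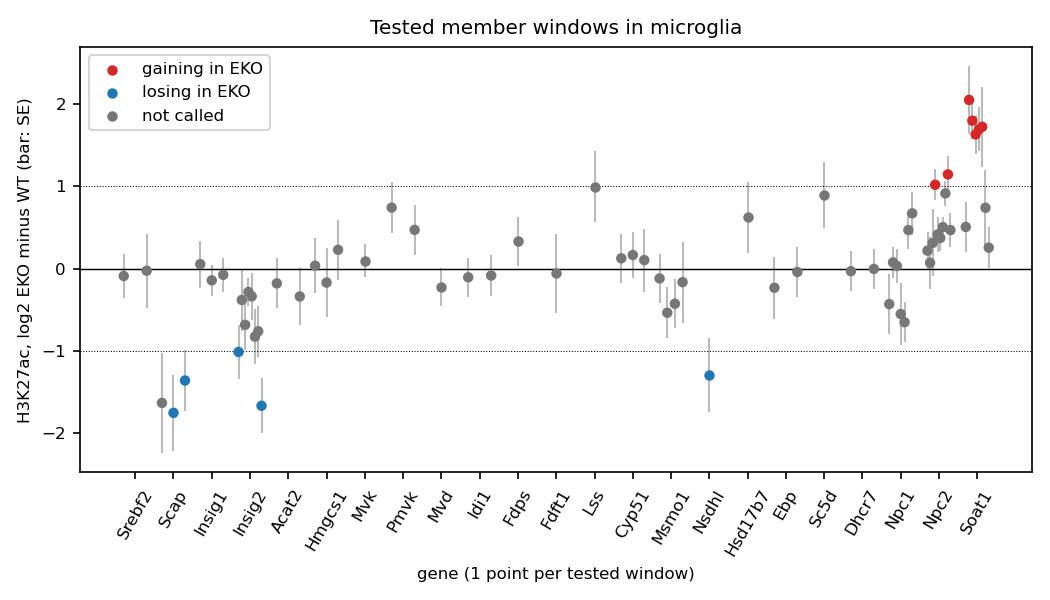
Log2 difference in H3K27ac between EKO and WT microglia (y axis, bars are standard errors) for each of the 69 tested windows, by gene (x axis). Red points gained and blue points lost; the 5 gaining Soat1 windows lie between 1.63 and 2.05, and the losing windows belong to Scap, Insig2 and Nsdhl.

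By role, the regulators had 4 losing and no gaining of 16 windows, with a median of -0.53. The 12 windows of the mevalonate arm had no call and a median of -0.02. The 2 windows of the squalene and lanosterol arm had no call, and the post-lanosterol arm had 1 losing of 14. The transport and storage genes had 7 gaining and no losing of 25, with a median of 0.47. Neighbouring windows of 1 gene overlap, so these counts are not counts of separate elements. Of 25 other genes of sterol metabolism (among them Srebf1, Ch25h, Lipa and Nceh1), 22 had tested windows, and 28 of their 131 windows gained (21.4%) and 3 lost (2.29%).

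Split at 3000 bp from the start, 3 of 40 promoter-side member windows gained and 2 lost, against 5.08% and 3.31% of all promoter-side windows. Of 29 distal member windows, 4 gained and 3 lost, against 11.6% and 11% of all distal windows. The called windows were therefore split between near and far positions, and only 1 of them, at Nsdhl, covered a start.

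Soat1, which encodes the enzyme that esterifies cholesterol for storage in lipid droplets, had the largest gains of the members. In its window of smallest p, chr1:156471449-156472449 in an intron 2379 bp from the start, the WT libraries had 45.6 and 30.9 normalized tags and the EKO libraries 258 and 98.6. Both EKO values lay above both WT values, as deposited and without further scaling. The log2 difference was 1.80 (SE 0.23) and the limma adjusted p was 7.72e-06. The 5 called windows spanned from 1320 to 5534 bp after the start. At the Soat1 start itself (3 bp) the values were 31.6 and 40.8 in WT and 86.3 and 46.3 in EKO, and the log2 difference of 0.51 (limma adjusted p 0.257) did not pass.

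Npc2, the lysosomal carrier that hands cholesterol to NPC1, gained at 2 of its 10 tested windows. At chr12:84762153-84763153, 10459 bp from the start in an intron, the WT libraries had 91.5 and 66.7 tags and the EKO libraries 346 and 103 (log2 difference 1.02, SE 0.19, limma adjusted p 4.48e-04). The groups did not overlap, but EKO library 2 was close to the higher WT library. A second window 22232 bp away rose by 1.15 on the log2 scale (SE 0.22). Npc1, its membrane partner, had no called window among 7, and at its start the values were 122 and 90.6 in WT and 230 and 73.9 in EKO.

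**Figure D2:**
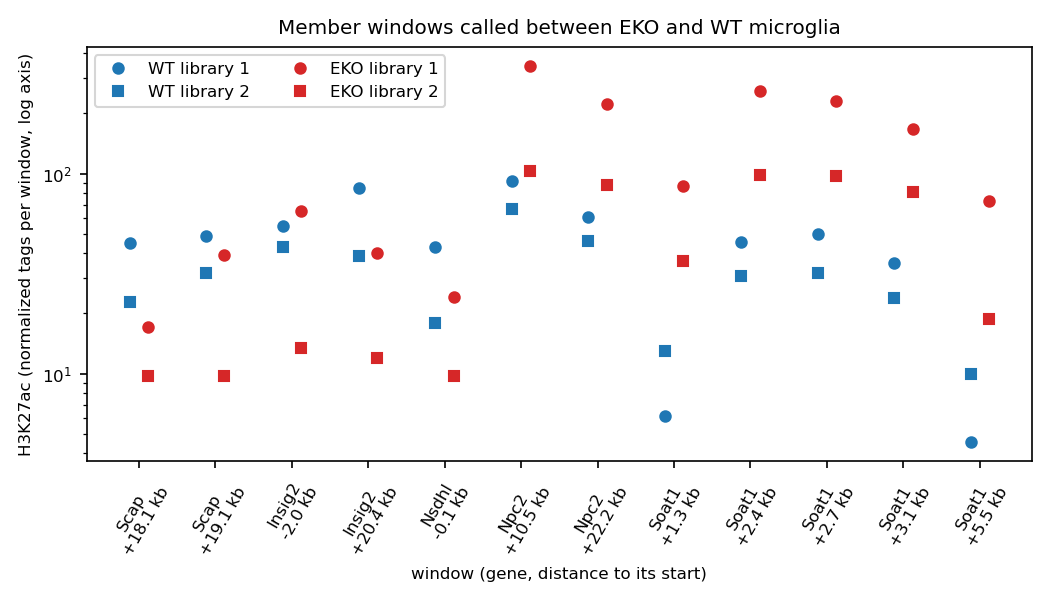
Normalized tags of H3K27ac (y axis, log scale) in each of the 4 microglia libraries for the 12 called member windows (x axis, gene and distance to its start in kb); circles are library 1 and squares library 2. In the Soat1 and Npc2 windows both EKO libraries lie above both WT libraries, and in 4 of the 5 losing windows EKO library 1 lies between or above the WT libraries.

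Insig2, a sterol-sensing anchor that retains SCAP, lost H3K27ac at 2 of 8 tested windows. At chr1:121306824-121307824, 20354 bp from the start in an intron, WT had 85.0 and 38.8 tags and EKO 40.2 and 11.9 (log2 difference -1.67, SE 0.34, limma adjusted p 0.00102). As deposited, EKO library 1 lay between the WT libraries, so the groups overlapped on that scale. The window at its start (-164 bp), with 193 and 125 in WT and 263 and 85.9 in EKO, had a log2 difference of -0.28 (limma adjusted p 0.248).

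Scap, which escorts SREBP-2 out of the endoplasmic reticulum, lost at 2 of 3 tested windows, all of them intronic and between 17389 and 19114 bp from the start. At chr9:110350975-110351975 the WT libraries had 45.2 and 22.9 tags and the EKO libraries 17.1 and 9.71 (log2 difference -1.76, SE 0.46, limma adjusted p 0.00827). Both EKO values were below both WT values. The window at its start had 6.16 and 9.95 in WT and 30.1 and 6.72 in EKO, with a mean under the filter, and was not tested.

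Nsdhl, a dehydrogenase that helps remove the methyl groups of lanosterol, was the single synthesis enzyme with a call. Its promoter window, chrX:72917968-72918968, had 43.1 and 17.9 tags in WT and 24.1 and 9.71 in EKO (log2 difference -1.29, SE 0.45, limma adjusted p 0.0426). EKO library 1 lay between the WT libraries as deposited.

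The windows at the starts of the other regulators and of the entry enzymes gave no call. Srebf2 (-150 bp) had 54.2 and 44.8 tags in WT and 110 and 29.1 in EKO, a log2 difference of -0.09 (limma adjusted p 0.849) that was 0.20 as deposited. Insig1 (-262 bp), a quickly induced target of SREBP-2, had 145 and 108 in WT and 220 and 80.6 in EKO, a log2 difference of -0.14 (limma adjusted p 0.627) that was 0.09 as deposited. Hmgcs1 (-159 bp), which makes HMG-CoA, had 36.5 and 21.9 in WT and 57.2 and 23.1 in EKO (log2 difference 0.04, limma adjusted p 0.954). Sqle (-72 bp), the squalene epoxidase, had 3.69 and 2.99 in WT and 15.1 and 3.73 in EKO and was under the filter. In all 4 genes the EKO libraries differed from each other by more than the WT libraries did.

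The rest of the synthesis enzymes gave no call where a window at their start was tested. The start windows of Fdps (-85 bp) and Tm7sf2 (-73 bp) were under the filter, and the nearest Dhcr7 window was 6426 bp away. In the mevalonate arm, Mvk (-83 bp), the mevalonate kinase, had 108 and 71.7 tags in WT and 184 and 66.4 in EKO, and Idi1 (-46 bp), the isopentenyl isomerase, had 77.6 and 77.6 in WT and 160 and 47.0 in EKO. Beside the loss at Nsdhl, the highest differences were 0.74 at Pmvk in the mevalonate arm (-309 bp, limma adjusted p 0.086), 1.00 at Lss in the squalene arm (-122 bp, 0.105) and 0.90 at Sc5d in the post-lanosterol arm (-16 bp, 0.113), none of which passed. At Lss the libraries had 9.85 and 11.9 tags in WT and 58.2 and 17.2 in EKO, so both EKO values were above both WT values. Cyp51 (-89 bp), the lanosterol demethylase, had 82.5 and 34.8 in WT and 93.3 and 50.8 in EKO, a log2 difference of 0.12. Msmo1 (-119 bp), the sterol methyl oxidase, had 37.4 and 35.8 in WT and 72.3 and 24.6 in EKO, a log2 difference of -0.12. In these last 2 genes the groups overlapped.

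The number of calls depended on the fit and on the libraries. With the values as deposited limma called no member window in either direction (2 of 69 at an unadjusted p under 0.05) and called 0.814% of all windows as gaining and 0.128% as losing. On simulated data with known changes that fit called none of them, although on the real data it did make the calls above. The simulation therefore does not match the data here. The lack of calls at member windows as deposited can neither be set aside nor be read as no change. edgeR on the recovered tags called 7 gaining and 5 losing windows and DESeq2 6 and 2. Without WT library 1 or EKO library 1 no window at all of the 55285 was called. Without WT library 2 or EKO library 2, 2 member windows gained and 0 lost. The Soat1 window at 2379 bp was still called in both of those fits (limma adjusted p 0.0333 and 0.0372), and its log2 difference was 2.06 as deposited and 1.72 to 1.91 with 1 library left out. The windows described above at Npc2, Insig2, Scap and Nsdhl kept their direction without any 1 library, from 0.96 to 1.09 at Npc2, -2.01 to -1.28 at Insig2, -2.24 to -1.36 at Scap and -1.71 to -0.80 at Nsdhl. These windows and that of Soat1 were picked by smallest p in the same libraries, so a kept direction adds little.

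Markers of other brain cells moved in the same libraries. Over windows of 6 genes of border-associated macrophages the summed tags were 397 and 310 in WT and 2228 and 800 in EKO. Of 27 tested windows 17 gained, all at Ms4a7, Mrc1 and Pf4, and the other genes of the list had no call. Over those of 4 monocyte genes the sums were 1402 and 1281 in WT and 5873 and 2191 in EKO. Of 23 tested windows 14 gained, at Itga4 and Ccr2, and 2 lost, at Plac8. Both sums were thus higher in both EKO libraries, with gains at only some genes of each list. Over 8 microglial genes 2 of 161 tested windows gained and 11 lost. Over 6 astrocyte genes the sums were 2188 and 1384 in WT and 1601 and 507 in EKO. Only 1 of these genes, Slc1a3, had tested windows, and 14 of its 19 lost. Over 8 genes of the oligodendrocyte lineage the sums were 1551 and 1158 in WT and 1353 and 597 in EKO. Of these genes 3 had tested windows, and 8 of the 19 windows lost, at Mog and Mbp. In both of these lists EKO library 1 lay between the WT libraries and EKO library 2 below both. The CD45low gate of the sort is meant to leave out macrophages with more CD45, and the CD11b+ gate to leave out glia of other lineages. The part of these markers in the Soat1 and Npc2 gains and in the Scap, Insig2 and Nsdhl losses was not tested, and a different share of such cells cannot be told apart from a different level of H3K27ac per cell.

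SALL1 peaks of WT microglia fell in 12 of the 131 member windows (9.16%), at Scap, Insig2, Fdps, Npc2 and Soat1, against 13.7% of all windows. Within 2 kb of a start they lay at 4 of 26 members (Insig2, Mvk, Fdps and Msmo1), against 8.64% of all starts. None of the 7 EKO peaks lay in a member window (0.00826% of all windows held one) or near a start (0% of all). PWK peaks lay in 1 member window, at Npc2 (0.763%, against 3.42% of all), and SPRET peaks in 3, at Npc1 (2.29%, against 2.2% of all). No member start had a PWK or SPRET peak, against 2.31% and 1.33% of all starts. The called windows held SALL1 peaks on both sides: 3 of the 7 gaining windows (2 at Soat1 over 1 peak, 1 at Npc2 only at its edge) and 2 of the 5 losing windows (Scap and Insig2). p300 peaks lay in 5 member windows (3.82%, against 9.64% of all) and SMAD4 WT peaks in 4 (3.05%, against 4.89%), at Cyp51 and Npc2. SMAD4 mutant peaks also lay in 4, at the same genes (against 3.03% of all windows). No called window held a peak of the p300 or SMAD4 lists used here. For SALL1, p300 and SMAD4 the matching shares over all gaining or all losing windows were not counted. The counts in called member windows can therefore not be called high or low. At starts, p300 peaks lay at 3 members (Insig1, Insig2 and Acat2, against 12.4% of all starts), and each SMAD4 list at Cyp51 alone, against 5.41% of all starts for WT and 3.66% for the mutant. The lists held 9177 (p300), 4024 (SMAD4 WT) and 2333 (SMAD4 mutant) peaks and need not hold every site of a factor, so no peak means only that the list had none there. Each list is 1 pooled set, so these shares have no replicate error and no test.

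**Figure D3:**
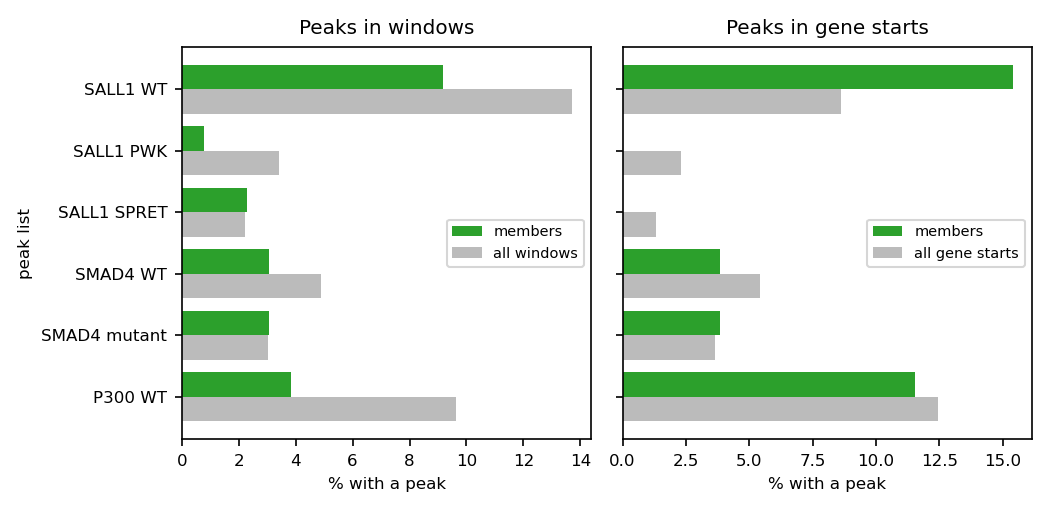
Share of member windows (left) and member starts (right) with a peak of each list, beside the share of all windows or all gene starts (x axis, percent). SALL1 WT peaks are at 9.16% of member windows against 13.7% of all windows, and at 15.4% of member starts against 8.64% of all starts.

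The reference sequence of the 4 SALL1 peaks overlapping called windows by at least 1 bp is given below (plus strand of GRCm38.p6). At Soat1, Scap and Insig2 the peak lay within a called window. The Npc2 peak only touched the edge of its called window, which ends at 84751380. It lay inside the neighbouring window chr12:84750923-84751923, which rose by 0.92 on the log2 scale (SE 0.15) and was not called. Capitals mark GAGGAA on either strand, a core of the PU.1 motif, which 49.5% of all 15410 SALL1 peaks held. The Soat1 and Npc2 peaks had 1 match each, the Scap peak 2 and the Insig2 peak 0.
Soat1 gaining, chr1:156471128-156471380: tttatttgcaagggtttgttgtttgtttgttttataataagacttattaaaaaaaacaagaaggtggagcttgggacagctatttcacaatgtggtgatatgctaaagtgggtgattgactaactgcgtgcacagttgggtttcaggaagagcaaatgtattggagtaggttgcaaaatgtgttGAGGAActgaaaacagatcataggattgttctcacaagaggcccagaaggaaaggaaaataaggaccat
Npc2 gaining, chr12:84751364-84751574: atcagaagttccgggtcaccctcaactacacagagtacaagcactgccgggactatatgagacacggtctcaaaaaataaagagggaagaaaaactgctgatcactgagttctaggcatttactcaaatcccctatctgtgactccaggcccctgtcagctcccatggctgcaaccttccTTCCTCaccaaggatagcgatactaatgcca
Scap losing, chr9:110352371-110352579: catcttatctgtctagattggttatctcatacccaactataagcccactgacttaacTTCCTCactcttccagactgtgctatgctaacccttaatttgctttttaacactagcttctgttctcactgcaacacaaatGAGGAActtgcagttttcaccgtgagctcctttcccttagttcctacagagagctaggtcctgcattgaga
Insig2 losing, chr1:121329906-121330126: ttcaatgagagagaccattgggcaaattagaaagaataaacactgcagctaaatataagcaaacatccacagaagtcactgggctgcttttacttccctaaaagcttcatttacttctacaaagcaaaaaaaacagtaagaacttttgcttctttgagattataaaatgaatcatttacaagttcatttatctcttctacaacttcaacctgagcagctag

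Sorted nuclei placed the members among brain cell types. H3K27ac within 2 kb of the start, summed from called regions, was lower in PU1 than in NeuN nuclei at 20 of 26 members and lower than in Olig2 nuclei at 20, in 1 limma fit over 14218 genes. The same calls were made at 39.3% and 24.5% of all genes. None was higher in PU1 than in NeuN (9.76% of all genes were), and 1, Soat1, was higher than in Olig2 (10.9% of all). All synthesis enzymes but Mvd and Fdps were among the genes lower in PU1 than in NeuN. In 7 of the 20 (Sqle, Lss, Msmo1, Nsdhl, Hsd17b7, Sc5d and Stard4) every PU1 library was listed at 0, which means that no region was called, not that tags were absent. That is 35% of the members called lower, against 56.4% of all genes called lower in PU1 than in NeuN. Without the sparse PU1 WT library 1, 2 members were higher and 19 lower in PU1 than in NeuN, and 2 higher and 18 lower than in Olig2. Soat1 was no longer called against Olig2 when any 1 of 9 libraries was left out.

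Srebf2 had 0, 49.2, 0 and 31.7 tags in the PU1 libraries (WT 1, WT 2, EKO 1, EKO 2), 300 to 437 in NeuN and 276 to 499 in Olig2. Sqle was at 0 in all PU1 libraries, at 69.8 to 119 in NeuN and at 17.1 to 121 in Olig2. Hmgcs1 had 0 to 17.5 in PU1, 162 to 326 in NeuN and 153 to 332 in Olig2. Every NeuN value of these genes lay above every PU1 value, as it did for 18 of 26 members and for 42.7% of all genes tested. Mvd, a decarboxylase of the mevalonate arm, was an exception, with 41.2 to 176 in PU1, 79.6 to 111 in NeuN and 67.0 to 148 in Olig2.

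**Figure D4:**
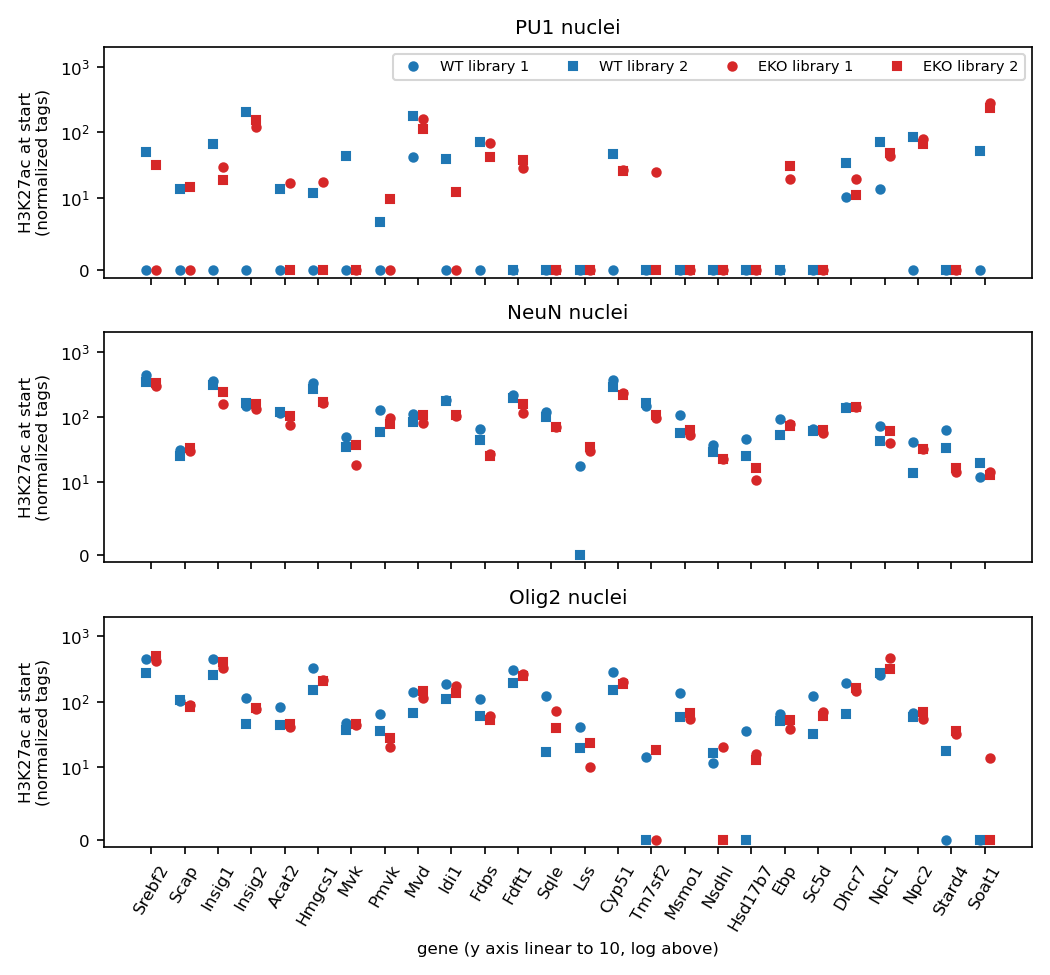
Normalized H3K27ac tags within 2 kb of the start of each member (y axis, linear up to 10 and logarithmic above) in the 4 PU1, 4 NeuN and 4 Olig2 libraries; blue is WT and red EKO, circles library 1 and squares library 2. Most synthesis genes are lower in PU1 than in NeuN and Olig2, with 7 members at 0 in every PU1 library, and Soat1 is highest in the PU1 EKO libraries.

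Between NeuN and Olig2 nuclei 1 member was higher in NeuN and 1 lower, against 24.3% and 9.04% of all genes. Tm7sf2, a sterol reductase, had 96.3 to 164 tags in NeuN and 0 to 18.6 in Olig2 (log2 difference 4.92, SE 1.38, limma adjusted p 0.0270). Npc1 had 40.4 to 73.4 in NeuN and 259 to 460 in Olig2 (log2 difference -2.57, SE 0.53, limma adjusted p 0.00669), and no library of one type reached the other. The call at Tm7sf2 was lost without any 1 of the 4 NeuN libraries. The other 24 members gave no call, which does not show that their levels were alike.

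Within cell types, EKO and WT differed at 2 members, both in PU1 nuclei and both higher in EKO, against 3.38% of all genes called higher and 0.155% lower. Fdft1, the squalene synthase, was listed at 0 in both WT libraries and had 28.5 and 37.8 tags in EKO. Ebp, a sterol isomerase, was listed at 0 in both WT libraries and had 19.3 and 30.5 in EKO. Since WT library 1 was listed at 0 for 23 of 26 members, these calls rest largely on WT library 2. Without it 10 members were called higher in EKO, and without WT library 1 there were 2 higher and 1 lower. Neither gene had a call in whole microglia, where the start of Fdft1 had 16.8 and 11.9 tags in WT and 33.1 and 11.2 in EKO.

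Soat1 had 0 and 50.9 tags in the PU1 WT libraries and 284 and 237 in the EKO libraries, 12.2 to 20.1 in NeuN and 0 to 13.8 in Olig2. Both EKO values exceeded both WT values, but the difference did not pass (log2 5.18, SE 1.81, limma adjusted p 0.342). Markers of other myeloid cells were also higher in the PU1 EKO libraries. The 6 border-associated macrophage genes summed to 13.7 and 226 tags in PU1 WT and 1737 and 1288 in EKO, with none of the 6 at 0 in every PU1 library, and the 4 monocyte genes to 0 and 141 in WT and 754 and 538 in EKO, with 1 at 0 in every PU1 library. Microglial markers summed to 2291 and 9747 in WT and 7855 and 5885 in EKO. Their part in the Soat1, Fdft1 and Ebp values was not tested.

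PU1 nuclei were also read at windows called in microglia, and did not follow the microglia call at every window. Tags of a called region were shared out evenly over its length. Windows inside 1 region thus have the same value and are not separate readings, as with the EKO values of the first Soat1 windows below. The Soat1 intron window 1320 bp from the start, which gained in microglia, had 0 and 20.0 in PU1 WT and 110 and 66.9 in EKO. The window at 2379 bp had 0 and 70.9 in WT and 110 and 66.9 in EKO, so there the PU1 groups overlapped. The Scap window that lost most in microglia had 11.6 and 63.1 in PU1 WT and 0 in both EKO libraries. At Npc2 the window at 10459 bp had 0 and 42.6 in WT and 51.2 and 52.0 in EKO. Its window at 22232 bp had 35.3 and 169 in WT and 215 and 158 in EKO, an overlap. The Insig2 window at 20354 bp had 0 and 20.8 in WT and 0 in both EKO libraries. Its window at -1959 bp overlapped, with 0 and 72.2 in WT and 44.4 and 52.1 in EKO. Nsdhl was listed at 0 in every PU1 library. In NeuN nuclei no member was called (1 of 26 at an unadjusted p under 0.05), nor in Olig2 nuclei (1 of 26), against 0.366% and 0.387% of all genes called higher and 0.169% and 0.380% lower in limma.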

How the data were processed

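ChIP-seq reads had been mapped to mm10 with Bowtie2 and processed with HOMER by the authors, per the labels. The microglia table was deposited as tags normalized to 1e+07 per library (a signal scale) in 1000 bp windows, and the nuclei files as normalized tags of regions called over input with their fold over input (a ratio). Peak lists were deposited pooled per group with the authors' score. Columns of the authors' own comparisons were not used, and 0 columns of other samples were left out.

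Groups came from the labels. Whole tags were recovered from the smallest step of each microglia column (100% of values within 0.05 of a whole number). limma (log2 of tags + 1, pseudocount 1, quantile normalization for microglia) was fitted to windows with a mean above 16 and to 14218 genes with a value in at least 2 of 12 nuclei libraries. edgeR and DESeq2 were run on recovered tags as alternatives. Nuclei tags were apportioned by overlap to 2000 bp around GENCODE starts. Peaks counted with 1 bp of overlap. Genes were named by rule: Srebf2, Scap, Insig1, Insig2, Hmgcs1 and Sqle at their start, members with a call at the window of smallest p, and members with the largest nuclei differences. Fdps, Fdft1, Sqle, Npc1 and Stard4 had no promoter sequence in the table used. The members and lists were chosen with earlier results of these data known. Replicates are separate samples by label, and p-values measure the spread between them. On simulated data with known changes the microglia fit called most of the large ones and few of the small, and the same fit on values as deposited called none. The nuclei fit called few of the known changes between cell types and none between EKO and WT in PU1 at any size tried. On the real data the nuclei fit called 481 genes higher and 22 lower in PU1 EKO. It called 1387 genes higher and 5581 lower in PU1 than in NeuN. How often the nuclei fit misses a real change was not tested, and a lack of calls in nuclei is not read as no change. Same-numbered libraries did not deviate together (correlation 0.036 in microglia), so numbers were not taken as pairs.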

Additional observations from a re-analysis of the deposited data

Results flagged for a closer look

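Fdft1 and Ebp were singled out because the EKO-minus-WT change at their starts differed between PU1 nuclei and the mean of NeuN and Olig2 nuclei, by a contrast added after the data were seen. The log2 difference between the changes was 5.32 for Fdft1 (SE 0.55, limma adjusted p 0.00156) and 4.78 for Ebp (SE 0.58, limma adjusted p 0.0031). Over all genes 3.31% were called in that direction. Both WT PU1 libraries were listed at 0 for both genes, so the sizes depend on the pseudocount. A group listed at 0 throughout shows no spread between its libraries, so the SE and adjusted p depend on those listings too.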

How the results depend on the processing

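The microglia calls moved most. With values as deposited, 0 windows gained and 0 lost, near or far from starts. edgeR left 1 promoter-side window losing. DESeq2 left 2 windows losing, 0 of them promoter-side. A pseudocount of 8 left 0 promoter-side windows losing. Without the filter 1 window lost, which was distal, and 0 promoter-side windows did. With the split at 1000 bp, 0 promoter-side windows gained, 1 lost and 7 distal windows gained. Leaving out 1 library in turn gave 0 to 2 windows gaining (0 to 2 promoter-side, 0 distal) and 0 losing. The lone library of a group was then assumed to vary like the other group. As deposited, the log2 difference at the start was 0.20 for Srebf2 and 0.089 for Insig1, the opposite sign. Leaving out 1 library gave -0.29 to 0.12 for Srebf2 and -0.16 to 0.22 for Hmgcs1. As deposited, 86.4% of all calls were gains, against 53.5% after quantile normalization, and the median over all windows was 0.28. The causes were not tested.

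In nuclei, quantile normalization gave 5 members higher in PU1 than in NeuN, 7 lower in NeuN than in Olig2, 1 higher in PU1 EKO and 0 with a larger EKO change in PU1 than in the other nuclei. A pseudocount of 8 gave 1 higher in PU1 than NeuN, 2 higher and 2 lower in NeuN than Olig2, and 1 with a larger EKO change in PU1 than in the other nuclei. Regions of at least 8 fold over input gave 0 higher and 13 lower in PU1 than Olig2, 1 higher in PU1 EKO, 1 higher in NeuN EKO, 1 lower in Olig2 EKO, and 1 with a larger EKO change in PU1 than in the other nuclei. Leaving out 1 library gave 0 to 2 members higher in PU1 than NeuN, 0 to 2 higher and 13 to 23 lower in PU1 than Olig2, 0 to 3 higher and 1 to 2 lower in NeuN than Olig2, 2 to 10 higher and 0 to 1 lower in PU1 EKO, 0 to 1 higher in NeuN EKO, and 0 to 1 either way in Olig2 EKO. The EKO change against the other nuclei ranged from 2 to 9 members higher and 0 to 1 lower. The highest counts of 10 and 9 came without PU1 WT library 2, and the 13 without Olig2 WT library 1.

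With the replicate block, 7 member windows gained and 6 lost in microglia, and no nuclei count changed. PU1 WT and EKO deviations correlated at -0.105, and the block with crossed PU1 EKO numbers, added after the data were seen, gave 19 members lower than NeuN and 20 lower than Olig2.

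With only the peaks at or above the median score of each list, peaks lay in 7 (SALL1 WT), 1 (SPRET), 1 (SMAD4 WT), 1 (SMAD4 mutant) and 0 (p300) member windows, and at 0 member starts for SALL1 WT, SMAD4 WT, SMAD4 mutant and p300. Within 1 kb of starts, 2 members had a SALL1 WT peak.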
